A study of Mus musculus with 9 samples.

Results

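The comparison described here sets livers of mice labelled Adipor2 knock-out against livers of wild-type mice, both injected with acetaminophen (APAP) and then with saline. It rests on 5 of the 9 libraries of the series, 2 labelled knockout and 3 wild type, chosen by genotype and treatment label alone. Of the 16857 genes in the deposited table, 10163 reached 1 FPKM (fragments scaled by gene length and by library total) in at least 2 of these 5 libraries and were tested. The other 4 libraries came from mice of both genotypes given leonurine after APAP, and they enter only as an alternative.

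Every mouse in this comparison had received APAP, so neither group is an uninjured liver. Both groups were given saline where the other mice were given leonurine, the compound that the study tested against drug-induced liver injury. The sources used here give no dose, no time of injection or sampling, no sex and no age, and the labels do not say whether replicates were separate animals. The p-values below therefore measure only how far these samples spread, which may be technical spread. The sources used here do not say which part of Adipor2 was removed or whether the deletion was restricted to a cell type, so that the animals are called labelled knockouts.

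Adipor2 encodes a seven-pass membrane protein of the PAQR family, the main receptor for the hormone adiponectin in hepatocytes. It is known for raising fatty acid use through PPARα, a nuclear receptor, and for lowering ceramide through a ceramidase activity. APAP is turned by cytochrome P450 enzymes into a reactive product that binds glutathione and then protein. Hepatocytes around the central vein die, and surviving hepatocytes re-enter the cell cycle to replace them. Genes that copy DNA are switched on by E2F transcription factors as such cells enter S phase, and genes induced by interferon are switched on through an element called ISRE (interferon-stimulated response element).

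The 2 lists with the highest medians in this comparison, DNA replication genes and interferon-stimulated genes, are shown first by their promoters, because most of their members were higher in both labelled knockout libraries. The 250 bases before the RefSeq start were searched on both strands for the E2F words TTTCCCGC, TTTGGCGC, TTTCGCGC and TTTGCCGC and for the ISRE word that is written GAAA, then any 2 bases, then GAAA, and overlapping matches were allowed. An E2F word stood in 7 of the 28 DNA replication genes matched to a promoter (25.0%) and in 4.02% of the 8233 tested genes with a promoter. The ISRE word stood in 12 of 24 interferon-stimulated genes and in 3.22% of those tested genes. No DNA replication gene held the ISRE word, and 3 interferon-stimulated genes held an E2F word.
Below are the 3 genes of each list with the smallest p that held a match and had 1 RefSeq start among the promoters searched. The windows (RefSeq, GRCm38.p6) are read 5′ to 3′ towards that start. For Cdc6 the start used lies inside the span of the gene (chr11:98907709-98923942), so that its window and matched word do too. The Mcm5 window runs past the first base of its gene (chr8:75109468). Capitals mark the matched words, those of E2F in the first 3 genes and those of ISRE in the last 3.
Mcm6 (chr1:128359706-128359955, minus strand): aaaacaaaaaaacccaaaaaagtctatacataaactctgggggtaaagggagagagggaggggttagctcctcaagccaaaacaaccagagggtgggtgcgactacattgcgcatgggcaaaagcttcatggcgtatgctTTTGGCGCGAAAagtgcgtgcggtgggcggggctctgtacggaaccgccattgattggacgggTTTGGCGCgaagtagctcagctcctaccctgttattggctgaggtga
Mcm5 (chr8:75109259-75109508, plus strand): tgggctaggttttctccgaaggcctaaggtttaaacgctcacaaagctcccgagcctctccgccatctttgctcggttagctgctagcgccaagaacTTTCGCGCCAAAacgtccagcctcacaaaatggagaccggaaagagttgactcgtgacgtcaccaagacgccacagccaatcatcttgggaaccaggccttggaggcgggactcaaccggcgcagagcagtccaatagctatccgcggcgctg
Cdc6 (chr11:98907901-98908150, plus strand): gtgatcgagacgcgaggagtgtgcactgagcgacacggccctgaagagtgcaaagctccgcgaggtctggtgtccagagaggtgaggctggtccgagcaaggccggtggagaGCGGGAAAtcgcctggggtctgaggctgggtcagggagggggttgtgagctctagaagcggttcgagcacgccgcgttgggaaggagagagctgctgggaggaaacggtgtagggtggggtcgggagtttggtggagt
Ifit3 (chr19:34583279-34583528, plus strand): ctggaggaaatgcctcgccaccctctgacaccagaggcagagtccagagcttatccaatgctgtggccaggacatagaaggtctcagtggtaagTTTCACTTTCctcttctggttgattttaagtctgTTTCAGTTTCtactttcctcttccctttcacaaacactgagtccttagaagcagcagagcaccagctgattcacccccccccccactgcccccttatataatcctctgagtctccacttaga
Ifit1 (chr19:34640639-34640888, plus strand): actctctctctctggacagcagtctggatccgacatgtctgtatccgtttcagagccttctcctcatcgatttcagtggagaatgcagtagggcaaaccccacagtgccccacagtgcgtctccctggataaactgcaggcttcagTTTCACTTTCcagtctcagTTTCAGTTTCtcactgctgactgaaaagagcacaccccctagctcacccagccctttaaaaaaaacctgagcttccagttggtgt
Isg15 (chr4:156200819-156201068, minus strand): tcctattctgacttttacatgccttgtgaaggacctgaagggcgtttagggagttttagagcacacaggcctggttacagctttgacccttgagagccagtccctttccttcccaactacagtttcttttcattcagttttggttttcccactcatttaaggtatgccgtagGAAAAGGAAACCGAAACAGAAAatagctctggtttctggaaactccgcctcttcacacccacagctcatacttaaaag
A matched word describes the sequence and says nothing of whether a factor was bound there in these livers.

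The 5 libraries were alike in depth. The labelled knockout libraries held 35640219 and 36300411 fragments, and the wild-type libraries held 35316653, 37252482 and 36004975, so that the deepest held 1.055 times the fragments of the shallowest. At that depth 3 fragments in a gene of median length equal 0.0232 to 0.0246 FPKM. The FPKM were tested without further scaling. They summed to 485983 and 444209 in labelled knockout replicates 1 and 2, and to 449890, 442948 and 445131 in wild type. Over all tested genes the pair of labelled knockouts had a Pearson's r of 0.979 and the wild-type pairs had r between 0.988 and 0.992, a description across genes, which are not independent replicates. The SD of the log2 difference between the labelled knockouts was 0.39, against 0.23 to 0.28 between wild types. By this SD labelled knockout replicate 2 lay nearer to wild-type replicates 3 (0.36) and 1 (0.38) than to its own partner. The labelled knockout libraries thus stood apart from each other, and values are given for each of them.

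Adipor2 itself (chr6:119353150-119417699, GRCm38.p6) was lower in both labelled knockout livers. It had 70.1 and 76.0 FPKM in the labelled knockouts, against 141, 126 and 135 FPKM in wild type. The 2 groups did not overlap, and the labelled knockout mean of 73.1 ± 4.14 FPKM (SD, n = 2) was 54.5% of the wild-type mean of 134 ± 7.57 FPKM (SD, n = 3). The log2 difference on the log2(FPKM + 1) scale was -0.87 ± 0.12 (SE; limma adjusted p = 0.0381). A two-sided exact permutation test over the 5 libraries gave p = 0.1, the smallest that 10 possible splits allow. Without wild-type replicate 1, 2 or 3 its adjusted p was 0.116, 0.140 and 0.156. In bulk tissue fewer cells of a type and less RNA per cell cannot be told apart. Transcript reads therefore remained over the gene as a whole, and a value summed over the whole gene does not check the deletion, because its position was not given.

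The receptor's partners and relatives showed no call besides Adipor2 among 19 tested members of a list of 25. Its median log2 difference was -0.02, against 0.08 over all tested genes. Adipor1, the other adiponectin receptor, had 37.1 and 35.4 FPKM in the labelled knockouts, against 34.3, 33.7 and 34.1 FPKM in wild type (log2 difference 0.09 ± 0.11, adjusted p = 0.682). Its labelled knockout mean was 107% of the wild-type mean.
The series title names calmodulin, the calmodulin-dependent kinase CaMKII and the endothelial nitric oxide synthase NOS3 downstream of the receptor. Camk2b, a CaMKII subunit, had 2.82 and 2.99 FPKM in the labelled knockouts, against 1.77, 0.87 and 0.95 FPKM in wild type, which did not pass (log2 difference 0.85 ± 0.19, adjusted p = 0.0942). The calmodulin genes Calm2 and Calm3 had log2 differences of 0.40 and 0.32, with every labelled knockout value above every wild-type value and adjusted p of 0.233 and 0.261. Nos3 had 1.74 and 1.66 FPKM in the labelled knockouts, against 2.41, 1.73 and 1.90 FPKM in wild type, and its groups overlapped. Prkaa2, the liver's main catalytic subunit of the energy sensor AMPK, had 7.53 and 7.40 FPKM in the labelled knockouts, against 10.001, 12.3 and 12.04 FPKM in wild type (log2 difference -0.55 ± 0.13, adjusted p = 0.103). Ppara had 43.5 and 42.0 FPKM in the labelled knockouts and 36.3, 34.4 and 40.3 FPKM in wild type (log2 difference 0.21 ± 0.12, adjusted p = 0.380).
Of 18 tested genes of ceramide metabolism 0 were called (2 higher and 1 lower at an unadjusted p under 0.05), and the smallest p belonged to Smpd3, a sphingomyelinase that releases ceramide. It had 2.17 and 2.75 FPKM in the labelled knockouts, against 1.25, 0.67 and 0.87 FPKM in wild type (log2 difference 0.85 ± 0.17, adjusted p = 0.0718). Sphk2, which phosphorylates sphingosine, followed with a log2 difference of 0.66 ± 0.15 (adjusted p = 0.103). Of the 4 tested members of the wider PAQR family 0 were called (1 higher at an unadjusted p under 0.05, Paqr7, log2 difference 0.49 ± 0.15, adjusted p = 0.163; Paqr9 was second at -0.23 ± 0.28, adjusted p = 0.666).

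Across all 10163 tested genes, 81 (0.797%) passed the threshold of 0.05 on the adjusted p. Of these, 61 were higher in the labelled knockouts (0.6% of tested genes) and 20 lower (0.197%). Without adjustment 1972 genes had a p under 0.05. All 81 called genes had groups that did not overlap, a property shared by 27.8% of tested genes in the higher direction and 11.2% in the lower. The median called gene differed by 1.10 on the log2 scale, and the adjusted p of the called genes ran from 0.0171 to 0.0488, so that most lay near the threshold. Among the 61 higher genes, labelled knockout replicate 2 was the higher of the pair in 36 and replicate 1 in 25. The split of 75.3% higher moved to 65.5% after median-ratio scaling (76 higher and 40 lower) and to 63.4% after quantile normalization (64 higher and 37 lower).
The calls depended on all 3 wild-type libraries. Without wild-type replicate 1, 2 or 3 no gene was called, with 1556, 1194 and 1371 genes at an unadjusted p under 0.05, and the adjusted p of the 81 genes lay between 0.0746 and 0.179. Without labelled knockout replicate 1, 251 genes were called, of which 69 were among the 81. Without labelled knockout replicate 2, 641 genes were called, which included all 81. In those last 2 fits the lone knockout library is assumed to vary like the wild types. Because the groups of all 81 genes did not overlap, leaving out 1 library could not reverse a direction. In these 5 fits their log2 differences stayed between 0.739 and 1.26 times the reported ones.

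**Figure D1:**
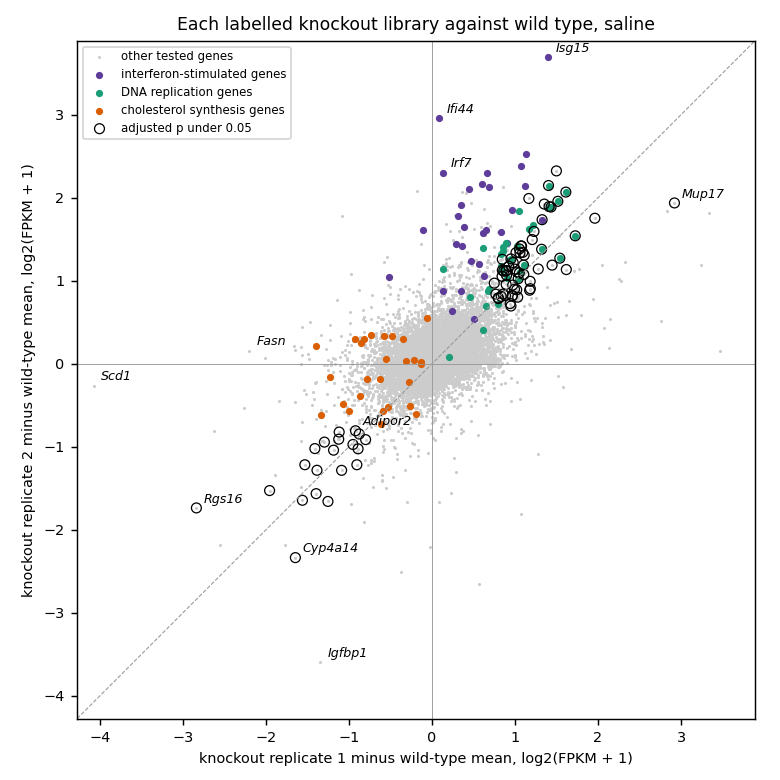
Log2(FPKM + 1) of each labelled knockout saline library minus the wild-type saline mean, replicate 1 on the x axis and replicate 2 on the y axis, 1 point per tested gene, with 81 called genes ringed and 3 gene lists coloured. Called genes lie near the dashed line of equal difference, interferon-stimulated genes lie above it (replicate 2 further from wild type), and cholesterol synthesis genes lie to the left (replicate 1 lower than wild type).

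The 10 called genes with the largest rise on the log2(FPKM + 1) scale were Mup17, Slfn9, Mup19, Rrm2, Uhrf1, Mcm6, Mcm5, Prim1, Tcf19 and Rfc4. That scale understates changes of low genes. By the ratio of mean FPKM the largest called rise was Zfp979, at 15.1 times wild type. It had 2.05 and 1.55 FPKM in the labelled knockouts, against 0.18, 0.12 and 0.06 FPKM in wild type (log2 difference 1.32 ± 0.14, limma adjusted p = 0.0302). The names Rrm2, Uhrf1, Mcm6, Mcm5, Prim1 and Rfc4 belong to the DNA replication list and are described with it. Mup17 and Mup19 encode major urinary proteins, small pheromone carriers that the liver secretes. Mup17 had 441 and 222 FPKM in the labelled knockouts, against 40.7, 71.8 and 64.4 FPKM in wild type (log2 difference 2.43 ± 0.33, adjusted p = 0.0381). Mup19 had 71.0 and 61.3 FPKM in the labelled knockouts, against 15.2, 18.1 and 19.5 FPKM in wild type (log2 difference 1.86 ± 0.15, adjusted p = 0.0171). Both rose, and their lowest labelled knockout value was more than 3 times the highest wild-type value. Mup genes are near-identical copies in a cluster on chromosome 4, so that the division of reads among them is uncertain. Slfn9, a member of the Schlafen family, had 5.87 and 11.2 FPKM in the labelled knockouts, against 1.51, 1.22 and 1.57 FPKM in wild type (log2 difference 1.91 ± 0.23, adjusted p = 0.0337), and it too has close paralogs. Tcf19, a factor expressed at the G1/S transition, had 9.80 and 15.1 FPKM in the labelled knockouts, against 3.79, 2.76 and 3.21 FPKM in wild type (log2 difference 1.64 ± 0.19, adjusted p = 0.0337).

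Among the 10 called genes with the largest fall on the log2(FPKM + 1) scale were Rgs16, Cyp4a14, Lpin1, Cyp2a4, Plk3, Pfkfb3, Lipg, Dusp1 and Slc38a2. Rgs16, Cyp4a14, Lpin1 and Dusp1 are described with their lists. Cyp2a4, a steroid hydroxylase that is higher in female than in male mouse liver, had 2.73 and 2.52 FPKM in the labelled knockouts, against 10.997, 8.80 and 10.4 FPKM in wild type (log2 difference -1.60 ± 0.13, adjusted p = 0.0171). It shares most of its sequence with Cyp2a5, so that its reads are uncertain too.
Pfkfb3, an enzyme that speeds glycolysis, had 5.60 and 3.98 FPKM in the labelled knockouts, against 12.5, 16.6 and 15.4 FPKM in wild type (log2 difference -1.46 ± 0.17, adjusted p = 0.0337). Slc38a2, an amino acid transporter, had 38.8 and 33.8 FPKM in the labelled knockouts, against 92.2, 74.6 and 85.3 FPKM in wild type (log2 difference -1.19 ± 0.14, adjusted p = 0.0337). Lipg, endothelial lipase, had 4.69 and 6.08 FPKM in the labelled knockouts, against 13.9, 18.6 and 14.3 FPKM in wild type (log2 difference -1.38 ± 0.17, adjusted p = 0.0337). All 3 fell, to between 32.3% (Pfkfb3) and 43.2% (Slc38a2) of the wild-type mean. Plk3, a kinase induced by stress and growth signals, also fell, with 25.0 and 22.2 FPKM in the labelled knockouts, against 73.7, 74.5 and 56.2 FPKM in wild type (log2 difference -1.48 ± 0.16, adjusted p = 0.0302).

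Genes that copy DNA were higher in both labelled knockout livers. Of 33 tested members of the DNA replication list of 34, 11 rose and 0 fell, against 0.6% of all tested genes that were called higher. In 32 of the 33 the groups did not overlap with the labelled knockouts higher, against 27.8% of tested genes, and the exception was Pold1. The median log2 difference over the 33 was 1.11, against 0.08 over all tested genes, and it was 0.95 in labelled knockout replicate 1 and 1.27 in replicate 2. Wild-type replicate 2 was the lowest of the 5 libraries in 31 of the 33 genes, and without it the median was 0.96. Without labelled knockout replicate 1 or 2 it was by construction the median of the other labelled knockout library, 1.27 or 0.95. The count of members called higher was 5 with a pseudocount of 0.1, 2 with array weights and 2 with a mean FPKM of at least 5. That count was 0 with no filter, with all 9 libraries, with the replicate block or without any 1 wild-type library. Summed over the list, the labelled knockouts had 385 and 473 FPKM, against 194, 140 and 180 FPKM in wild type.
The MCM proteins form the helicase that opens the DNA. Mcm6 had 18.1 and 24.9 FPKM in the labelled knockouts, against 7.74, 4.20 and 5.53 FPKM in wild type, and rose (log2 difference 1.74 ± 0.24, adjusted p = 0.0381). Mcm5 had 16.2 and 22.5 FPKM in the labelled knockouts, against 6.63, 3.68 and 6.19 FPKM in wild type, and rose (log2 difference 1.66 ± 0.24, adjusted p = 0.0403). Their promoters are the 2 printed above with overlapping E2F words. Mcm4 rose too (log2 difference 1.14 ± 0.18, adjusted p = 0.0486), and Mcm2, Mcm3 and Mcm7 had log2 differences of 1.44, 1.22 and 1.17 with adjusted p of 0.0571, 0.0745 and 0.0564. Mcm10, which helps to start the helicase, was the member nearest to no difference, with 17.9 and 16.4 FPKM in the labelled knockouts and 15.5, 15.3 and 15.4 FPKM in wild type (log2 difference 0.15 ± 0.11, adjusted p = 0.491).
Of the proteins that load and hold the polymerase, Pcna, the sliding clamp, had 82.7 and 86.2 FPKM in the labelled knockouts, against 37.5, 31.2 and 29.4 FPKM in wild type (log2 difference 1.35 ± 0.14, adjusted p = 0.0302). It was the most abundant member of the list in all 5 libraries, and its labelled knockout mean of 84.5 ± 2.46 FPKM (SD, n = 2) was 2.58 times the wild-type mean of 32.7 ± 4.26 FPKM (SD, n = 3). Rfc4, a subunit of the clamp loader, had 8.18 and 7.08 FPKM in the labelled knockouts, against 2.16, 1.23 and 2.03 FPKM in wild type (log2 difference 1.63 ± 0.18, adjusted p = 0.0302). Prim1, the primase that lays down RNA primers, had 8.70 and 12.6 FPKM in the labelled knockouts, against 3.14, 2.06 and 2.84 FPKM in wild type (log2 difference 1.65 ± 0.19, adjusted p = 0.0337). All 3 rose. Rpa2, which coats single-stranded DNA, and Gins2, a helicase partner, rose with log2 differences of 0.99 ± 0.15 and 1.41 ± 0.21 (adjusted p = 0.0426 for each).
Among enzymes that make nucleotides, Rrm2 and Dut rose. Rrm2, the regulated subunit of ribonucleotide reductase, had 33.5 and 46.4 FPKM in the labelled knockouts, against 14.2, 6.69 and 11.4 FPKM in wild type (log2 difference 1.84 ± 0.29, adjusted p = 0.0470). Dut, which removes dUTP, differed by 1.03 ± 0.15 on the log2 scale (adjusted p = 0.0381). Tyms and Tk1 had log2 differences of 0.76 and 1.13 and did not pass (adjusted p = 0.0564 and 0.0692). Uhrf1, which brings the maintenance DNA methyltransferase to new DNA, had 7.08 and 12.5 FPKM in the labelled knockouts, against 2.66, 1.33 and 2.34 FPKM in wild type, and rose (log2 difference 1.78 ± 0.27, adjusted p = 0.0429). Cdc6, an origin licensing factor, lay just outside the threshold with 1.56 and 2.62 FPKM in the labelled knockouts, against 0.45, 0.27 and 0.53 FPKM in wild type (log2 difference 1.11 ± 0.18, adjusted p = 0.0520).

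**Figure D2:**
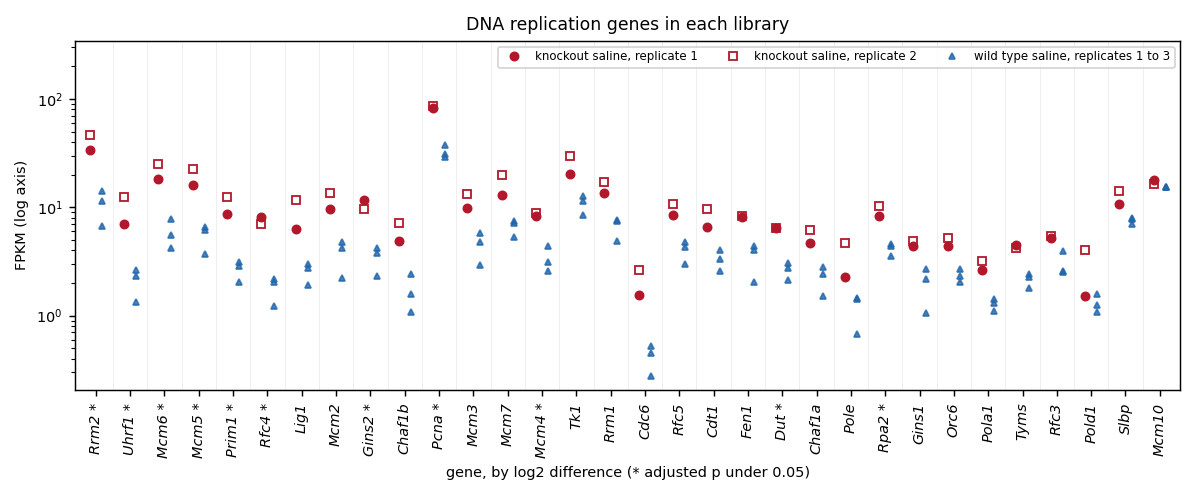
FPKM (log axis) of 32 of the 33 tested DNA replication genes in each library, labelled knockout saline left of wild type saline for each gene, ordered by log2 difference; an asterisk marks an adjusted p under 0.05. Both labelled knockout points lie above all 3 wild-type points in every gene shown except Pold1, and Mcm10 at the right end shows the smallest gap.

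Genes of mitosis and of the cell cycle outside DNA synthesis had a smaller median difference. Of 35 tested members 2 rose and 0 fell (0.6% of tested genes rose), 21 had labelled knockouts above every wild type (27.8% of tested genes), and the median log2 difference was 0.47 (0.40 in replicate 1 and 0.56 in replicate 2). The 2 that rose act at the G1/S boundary. E2f1, the transcription factor, had 6.61 and 8.68 FPKM in the labelled knockouts, against 3.22, 2.17 and 2.54 FPKM in wild type (log2 difference 1.25 ± 0.17, adjusted p = 0.0381). Ccne2, cyclin E2, had 6.20 and 5.13 FPKM in the labelled knockouts, against 2.50, 2.44 and 2.63 FPKM in wild type (log2 difference 0.92 ± 0.13, adjusted p = 0.0381).
The mitotic cyclin genes Ccnb1 and Ccnb2 had log2 differences of 0.12 ± 0.32 and 0.23 ± 0.31 (adjusted p = 0.868 and 0.707). Ccnb1 had 9.50 and 6.67 FPKM in the labelled knockouts and 8.34, 4.31 and 10.5 FPKM in wild type, and the groups overlapped. Mki67, a marker of cycling cells, had 9.29 and 13.3 FPKM in the labelled knockouts, against 6.64, 5.21 and 8.30 FPKM in wild type (log2 difference 0.67 ± 0.21, adjusted p = 0.168). Ccnd1, the cyclin that hepatocytes raise as they leave rest, had 39.0 and 46.7 FPKM in the labelled knockouts and 36.4, 46.6 and 43.0 FPKM in wild type (log2 difference 0.03 ± 0.15, adjusted p = 0.937). Wild-type replicate 2 was the lowest of the 5 libraries in 26 of the 35 genes, and without it the median of the list was 0.28. The difference in size between the 2 lists was not tested.
Other called genes, named here after their values were seen, act with DNA synthesis or chromosome structure. Esco2, which acetylates cohesin, had a log2 difference of 1.41 ± 0.21, Hat1, which acetylates new histone H4, of 1.21 ± 0.12, and Dck, which salvages deoxynucleosides, of 1.07 ± 0.13 (adjusted p = 0.0426, 0.0302 and 0.0337). Rad51ap1, Fignl1 and Mcm8, which act in recombination, had log2 differences of 1.10, 1.22 and 0.95. Cdkn2c, which instead holds back the cyclin D kinases, also rose, with 11.2 and 10.02 FPKM in the labelled knockouts and 5.05, 4.91 and 5.81 FPKM in wild type (log2 difference 0.89 ± 0.13, adjusted p = 0.0381). Of the 61 genes called higher, 45 were on none of the 46 lists.
Markers of blood cells are given beside this group. Over 12 erythroid markers, of which 7 were tested, 0 were called (4 higher at an unadjusted p under 0.05), none was at 0 in all 5 libraries, and the sum was 422 and 258 FPKM in the labelled knockouts, against 242, 197 and 192 FPKM in wild type. The median log2 difference of the 7 was 1.16 in replicate 1 and 0.28 in replicate 2. Over the lymphocyte markers 3 were tested and the sums overlapped, at 7.38 and 11.2 FPKM in the labelled knockouts, against 6.77, 5.73 and 7.80 FPKM in wild type. Jchain, the joining chain of antibody-secreting cells, had 1.17 and 1.94 FPKM in the labelled knockouts, against 0.30, 0.10 and 0.32 FPKM in wild type (log2 difference 1.03 ± 0.17, adjusted p = 0.0531). The part of these cells in the level of the DNA replication genes was not tested.

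Interferon-stimulated genes were higher in both labelled knockouts, and by far more in replicate 2. Of 30 tested members 1 rose and 0 fell (0.6% of tested genes rose), while 27 had labelled knockouts above every wild type, against 27.8% of all tested genes. The median log2 difference was 1.13, made of 0.54 in replicate 1 and 1.63 in replicate 2. Replicate 2 was above all 3 wild types in 30 of 30 genes (48.6% of tested genes) and replicate 1 in 27 of 30 (41.9%). The sum over the list was 598 FPKM in replicate 1 and 1234 FPKM in replicate 2, against 402, 421 and 441 FPKM in wild type. With replicate 2 or replicate 1 left out, the median was by construction that of the other library (0.54 or 1.63).
Psmb9, an interferon-induced subunit of the immunoproteasome, was the called member, with 18.9 and 25.4 FPKM in the labelled knockouts, against 6.45, 7.08 and 7.27 FPKM in wild type (log2 difference 1.53 ± 0.15, adjusted p = 0.0302). Psmb8, its partner subunit, had 26.6 and 36.2 FPKM in the labelled knockouts, against 19.5, 15.3 and 16.3 FPKM in wild type (log2 difference 0.84 ± 0.17, adjusted p = 0.0781). The pair of immunoproteasome genes differed less between the labelled knockouts than most of the list did. Cxcl10, a chemokine induced by interferon and kept on the chemokine list, rose. It had 3.16 and 3.95 FPKM in the labelled knockouts, against 1.46, 1.24 and 1.16 FPKM in wild type (log2 difference 0.99 ± 0.14, adjusted p = 0.0381). It was the 1 call among 13 tested chemokine genes (0.6% of tested genes were called higher).
Isg15, a ubiquitin-like protein and among the most strongly induced genes of the response, had 15.1 and 77.7 FPKM in the labelled knockouts, against 5.54, 4.79 and 4.99 FPKM in wild type (log2 difference 2.54 ± 0.56, adjusted p = 0.0942). Replicate 2 was far above replicate 1, with log2 differences from the wild-type mean of 3.69 and 1.40. Ifit1, which binds viral RNA, had 3.73 and 10.7 FPKM in the labelled knockouts, against 0.86, 1.87 and 1.16 FPKM in wild type (log2 difference 1.72 ± 0.37, adjusted p = 0.0869). Its partner Ifit3 had 7.17 and 15.6 FPKM in the labelled knockouts, against 2.61, 3.32 and 2.37 FPKM in wild type (log2 difference 1.64 ± 0.28, adjusted p = 0.0552). These are the 3 genes whose promoters are printed above with the ISRE word. Irf7, a transcription factor that amplifies the response, had 20.8 FPKM in replicate 1 and 96.9 FPKM in replicate 2, against 17.9, 19.8 and 18.9 FPKM in wild type. Ifi44 had 1.03 and 13.9 FPKM in the labelled knockouts, against 1.09, 0.88 and 0.79 FPKM in wild type, so that replicate 1 lay within the wild-type range. Stat2, a subunit of the factor that binds ISRE, was below every wild type in replicate 1 and above them in replicate 2, with 7.76 and 24.8 FPKM in the labelled knockouts, against 10.1, 12.8 and 11.9 FPKM in wild type.
The summed macrophage markers were 656 and 708 FPKM in the labelled knockouts and 599, 666 and 624 FPKM in wild type, so that the groups overlapped. Their part in the interferon-stimulated genes was not tested.

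**Figure D3:**
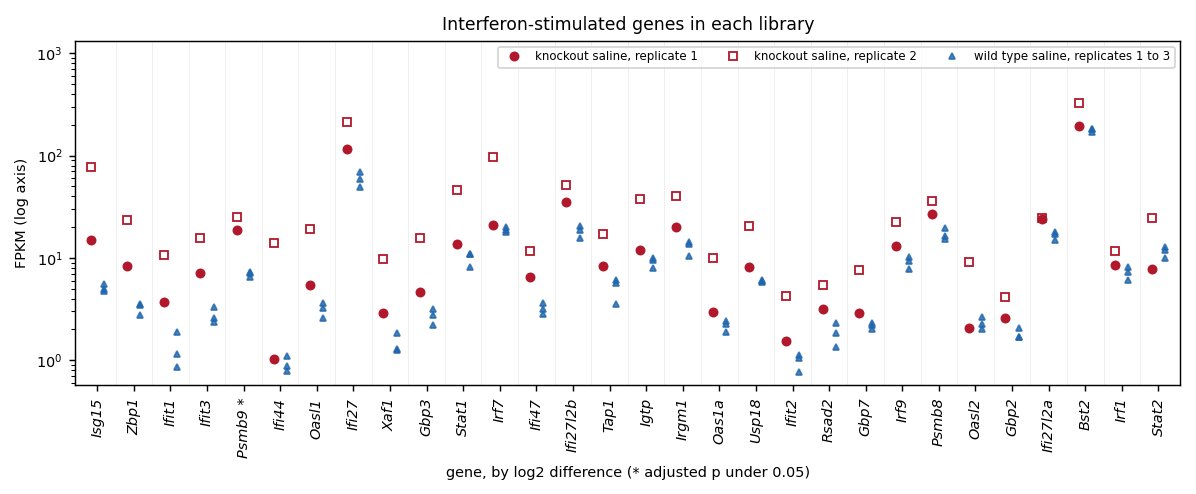
FPKM (log axis) of the 30 tested interferon-stimulated genes in each library, labelled knockout saline left of wild type saline for each gene, ordered by log2 difference; the asterisk marks an adjusted p under 0.05. Open squares (replicate 2) stand above all wild-type points in 30 genes, while filled circles (replicate 1) lie nearer to wild type, as for Irf7 at 20.8 FPKM.

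As a list, immediate-early transcripts were lower in the labelled knockouts. Of 21 tested members 2 fell and 0 rose, against 0.197% of tested genes called lower, and 13 had labelled knockouts below every wild type, against 11.2%. The median log2 difference was -0.65 (-0.53 in replicate 1 and -0.84 in replicate 2), and the sum was 197 and 173 FPKM in the labelled knockouts, against 375, 276 and 274 FPKM in wild type. Atf3, a stress-induced transcription factor, had 0.61 and 0.49 FPKM in the labelled knockouts, against 1.80, 1.87 and 1.74 FPKM in wild type (log2 difference -0.86 ± 0.12, adjusted p = 0.0381). Dusp1, a phosphatase that switches off MAP kinases, had 12.1 and 16.1 FPKM in the labelled knockouts, against 37.1, 38.0 and 27.5 FPKM in wild type (log2 difference -1.22 ± 0.19, adjusted p = 0.0464). Both fell, and the highest labelled knockout value of each was below the lowest wild-type value.
Nr4a1, an orphan nuclear receptor of the same early class, had 0.34 and 0.54 FPKM in the labelled knockouts, against 2.17, 2.50 and 1.45 FPKM in wild type (log2 difference -1.06 ± 0.18, adjusted p = 0.0531). Fos and Jun, which form the AP-1 factor, had log2 differences of -1.0004 ± 0.33 and -0.79 ± 0.32 (adjusted p = 0.185 and 0.244). Egr1 varied most within groups, with 23.1 and 4.49 FPKM in the labelled knockouts and 68.9, 7.92 and 48.0 FPKM in wild type (log2 difference -1.44 ± 0.93, adjusted p = 0.414). Myc, which hepatocytes raise early in regeneration, had 2.54 and 2.25 FPKM in the labelled knockouts and 3.68, 1.72 and 3.86 FPKM in wild type, with overlapping groups.

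Genes of fat synthesis and storage had a negative median in labelled knockout replicate 1 and a median near 0 in replicate 2. Of 35 tested members 2 fell and 0 rose (0.197% of tested genes fell), 13 had labelled knockouts below every wild type and 4 above (11.2% and 27.8% of tested genes), and the median log2 difference was -0.35 (-0.49 in replicate 1 and 0.02 in replicate 2). Lpin1, a phosphatidate phosphatase that also coactivates PPARα, had 24.4 and 33.2 FPKM in the labelled knockouts, against 120, 87.5 and 88.8 FPKM in wild type, and fell (log2 difference -1.74 ± 0.19, adjusted p = 0.0302). Rgs16, a brake on G-protein signalling that hepatocytes raise with carbohydrate, had 2.36 and 6.22 FPKM in the labelled knockouts, against 22.6, 18.5 and 29.4 FPKM in wild type, and fell (log2 difference -2.29 ± 0.33, adjusted p = 0.0381). Those 2 falls were present in each labelled knockout library. With replicate 1 or replicate 2 left out, the median of the list was by construction that of the other library (0.02 or -0.49).
Several major lipogenic enzymes were low in replicate 1 alone. Scd1, the stearoyl-CoA desaturase, had 70.1 FPKM in replicate 1 and 998.5 FPKM in replicate 2, against 1431, 1376 and 874 FPKM in wild type (log2 difference -2.17 ± 0.95, adjusted p = 0.265). Fasn, fatty acid synthase, had 11.4 and 62.6 FPKM in the labelled knockouts, against 43.8, 64.9 and 61.8 FPKM in wild type. Mlxipl, which encodes the glucose-sensing factor ChREBP, had 17.6 and 77.7 FPKM in the labelled knockouts, against 69.9, 72.4 and 79.5 FPKM in wild type. In all 3, replicate 2 lay inside the wild-type range and replicate 1 below it. Srebf1, which encodes the lipogenic factor SREBP-1, had 26.0 and 44.1 FPKM in the labelled knockouts and 31.8, 41.9 and 31.8 FPKM in wild type. Over the list, replicate 1 was below all wild types in 25 of 35 genes (31.7% of tested genes) and replicate 2 in 13 (18.6%).
Cholesterol synthesis genes showed the same split. Of 27 tested members 0 were called (10 lower at an unadjusted p under 0.05), and the median log2 difference was -0.31, made of -0.59 in replicate 1 and -0.00 in replicate 2. Replicate 1 was below all wild types in 25 of 27 genes (31.7% of tested genes) and replicate 2 in 11 (18.6%). Nsdhl, a late enzyme of the pathway, had 12.6 and 21.3 FPKM in the labelled knockouts, against 29.0, 38.3 and 33.0 FPKM in wild type (log2 difference -0.98 ± 0.22, adjusted p = 0.0973). Cyp51, which demethylates lanosterol, had 15.7 and 21.5 FPKM in the labelled knockouts, against 25.5, 38.2 and 34.6 FPKM in wild type (log2 difference -0.78 ± 0.21, adjusted p = 0.123). With replicate 1 or replicate 2 left out, the median of the list was by construction that of the other library (-0.00 or -0.59).

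Among genes of fatty acid oxidation, many of them targets of PPARα, a Cyp4a enzyme fell. Of 41 tested members 1 fell and 0 rose (0.197% of tested genes fell), 7 had labelled knockouts below every wild type (11.2% of tested genes), and the median log2 difference was -0.11 (0.03 in replicate 1 and -0.26 in replicate 2). Cyp4a14, a fatty acid omega-hydroxylase, had 93.2 and 57.4 FPKM in the labelled knockouts, against 396, 265 and 241 FPKM in wild type, and fell (log2 difference -1.99 ± 0.27, adjusted p = 0.0381). Its paralogs Cyp4a31 and Cyp4a10 had log2 differences of -1.33 ± 0.24 and -1.004 ± 0.23 (adjusted p = 0.0571 and 0.102), again with each labelled knockout below every wild type, and the division of reads among these copies is uncertain. Ehhadh, the peroxisomal bifunctional enzyme, had 127 and 112 FPKM in the labelled knockouts, against 163, 209 and 243 FPKM in wild type (log2 difference -0.76 ± 0.19, adjusted p = 0.112).
Other classical PPARα targets did not pass. Cpt1a, which admits fatty acids to mitochondria, had 152 and 110 FPKM in the labelled knockouts and 126, 126 and 130 FPKM in wild type (log2 difference 0.02 ± 0.16, adjusted p = 0.961). Pdk4, which spares glucose in fasting, had 5.87 and 3.18 FPKM in the labelled knockouts and 17.2, 2.14 and 4.27 FPKM in wild type, where wild-type replicate 1 stood far above the other 4 libraries.

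Genes of glucose output and fasting had 0 calls among 31 tested (8 lower at an unadjusted p under 0.05). The labelled knockouts were below every wild type in 12 of them, against 11.2% of tested genes, above in 0, and the median log2 difference was -0.24 (-0.29 in replicate 1 and -0.26 in replicate 2). Ppp1r3c, which targets a phosphatase to glycogen, had 9.39 and 8.58 FPKM in the labelled knockouts, against 13.4, 13.3 and 16.9 FPKM in wild type (log2 difference -0.63 ± 0.14, adjusted p = 0.0952). G6pc, the last step of glucose release, had 141 and 65.7 FPKM in the labelled knockouts, against 322, 190 and 251 FPKM in wild type (log2 difference -1.36 ± 0.34, adjusted p = 0.115). Igfbp1, a secreted protein that insulin represses and injury induces, had 56.3 and 11.1 FPKM in the labelled knockouts, against 331, 85.0 and 108 FPKM in wild type (log2 difference -2.47 ± 0.75, adjusted p = 0.158). Pck1, which starts gluconeogenesis, had 1290 and 1025 FPKM in the labelled knockouts and 1437, 1082 and 1513 FPKM in wild type, with overlapping groups.
Etnppl, a phospholyase of hepatocytes, was kept on the list of urea cycle and periportal genes. It was the 1 call among 17 tested there (0.197% of tested genes were called lower). It fell, with 17.6 and 19.5 FPKM in the labelled knockouts, against 33.0, 49.1 and 43.4 FPKM in wild type (log2 difference -1.11 ± 0.18, adjusted p = 0.0488), the called gene nearest to the threshold.

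**Figure D4:**
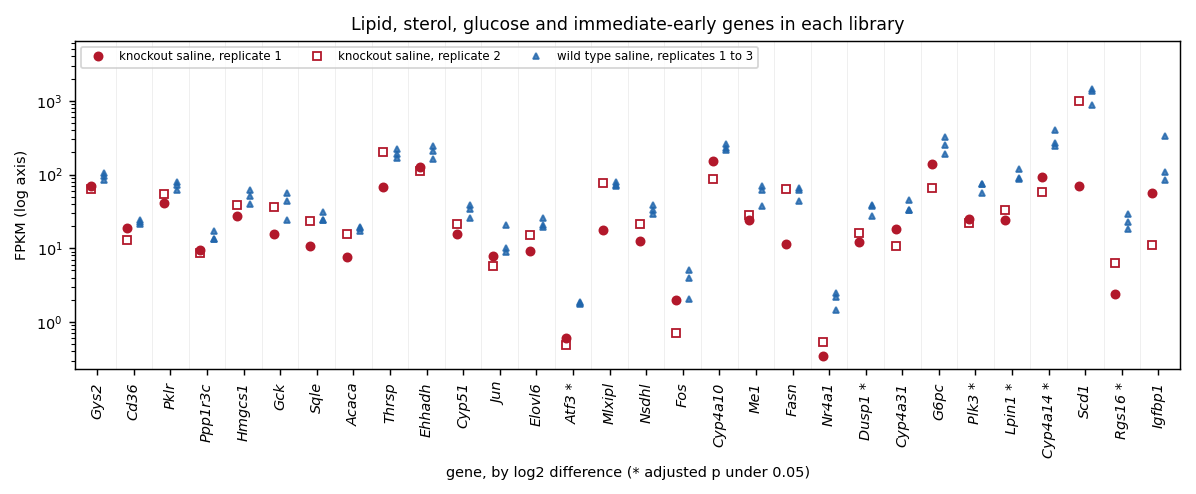
FPKM (log axis) of 30 genes of lipid, sterol and glucose metabolism and of the immediate-early class, with Plk3, in each library, labelled knockout saline left of wild type saline for each gene; asterisks mark an adjusted p under 0.05. Cyp4a14, Lpin1, Rgs16 and Atf3 are low in both labelled knockouts, whereas Scd1, Fasn and Mlxipl are low in replicate 1 (filled circle) and within the wild-type range in replicate 2 (open square).

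Genes that handle APAP showed 0 calls among 22 tested, with 0 under an unadjusted p of 0.05. Cyp2e1, the main enzyme that makes the reactive product, had a log2 difference of 0.02. Cyp3a11, which also makes it, had 3202 FPKM in replicate 1 and 1134 FPKM in replicate 2, against 1061, 1120 and 853 FPKM in wild type (log2 difference 0.92 ± 0.39, adjusted p = 0.258), so that replicate 1 alone was far above the rest. Gstz1 had the second smallest p of the list (log2 difference 0.25 ± 0.13, adjusted p = 0.349). Of 24 tested genes of the Nrf2 response and glutathione 0 were called (3 higher and 3 lower at an unadjusted p under 0.05). Gclc, the catalytic subunit of the enzyme that limits glutathione synthesis, had 83.1 and 93.7 FPKM in the labelled knockouts, against 124, 154 and 191 FPKM in wild type (log2 difference -0.80 ± 0.19, adjusted p = 0.108). Nqo1, another target of Nrf2, lay the other way, with 8.22 and 10.4 FPKM in the labelled knockouts, against 5.76, 5.53 and 6.52 FPKM in wild type (log2 difference 0.57 ± 0.14, adjusted p = 0.114).
Injury-response genes gave 1 call. Orm2, an acute-phase plasma protein, had 474 and 416 FPKM in the labelled knockouts, against 195, 186 and 250 FPKM in wild type, and rose (log2 difference 1.09 ± 0.17, adjusted p = 0.0464), the 1 call among 27 tested acute-phase genes (0.6% of tested genes were called higher), and it has close paralogs. Its call ended after median-ratio scaling and after quantile normalization (adjusted p = 0.0519 and 0.0556), with a pseudocount of 0.1 (adjusted p = 0.0551) and without any 1 wild-type library (adjusted p from 0.119 to 0.167). Saa2, another acute-phase protein, had 1597 and 171 FPKM in the labelled knockouts and 1075, 1062 and 1107 FPKM in wild type, so that the labelled knockouts lay on opposite sides of wild type. The metallothionein genes Mt1 and Mt2 were highest in wild-type replicate 1, with Mt2 at 192 and 41.5 FPKM in the labelled knockouts and 565, 93.1 and 141 FPKM in wild type. Among 34 tested genes of cell death 0 were called (8 higher at an unadjusted p under 0.05), 17 had labelled knockouts above every wild type, against 27.8% of tested genes, and the median was 0.17. Ppif, a regulator of the mitochondrial permeability pore, had 29.8 and 31.1 FPKM in the labelled knockouts, against 21.0, 21.8 and 20.6 FPKM in wild type (log2 difference 0.51 ± 0.11, adjusted p = 0.0899).

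Proteasome and ribosomal protein genes were higher mainly in replicate 1. Of 27 tested proteasome genes 0 were called (11 higher at an unadjusted p under 0.05) and 19 had labelled knockouts above every wild type (27.8% of tested genes), with a median log2 difference of 0.36, made of 0.54 in replicate 1 and 0.15 in replicate 2. Of 31 tested ribosomal protein genes 0 were called (3 higher at an unadjusted p under 0.05), and the median of 0.32 was made of 0.55 in replicate 1 and 0.07 in replicate 2. Replicate 1 was above all wild types in 31 of 31 ribosomal protein genes (41.9% of tested genes) and replicate 2 in 5 (48.6%). Among 31 tested respiratory chain genes, with 0 called, those counts were 28 and 8. Their median log2 difference was 0.30 in replicate 1 and 0.01 in replicate 2. Over all tested genes the medians were 0.05 in replicate 1 and 0.10 in replicate 2. The part of the higher FPKM sum of replicate 1 in these lists was not tested. With 1 labelled knockout left out, the proteasome and ribosomal protein medians were by construction those of the other. They were 0.54 and 0.55 without replicate 2, and 0.15 and 0.07 without replicate 1. Psme2, an interferon-induced proteasome activator subunit, had 52.7 and 51.8 FPKM in the labelled knockouts, against 39.5, 29.6 and 30.9 FPKM in wild type (log2 difference 0.64 ± 0.15, adjusted p = 0.103).

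**Figure D5:**
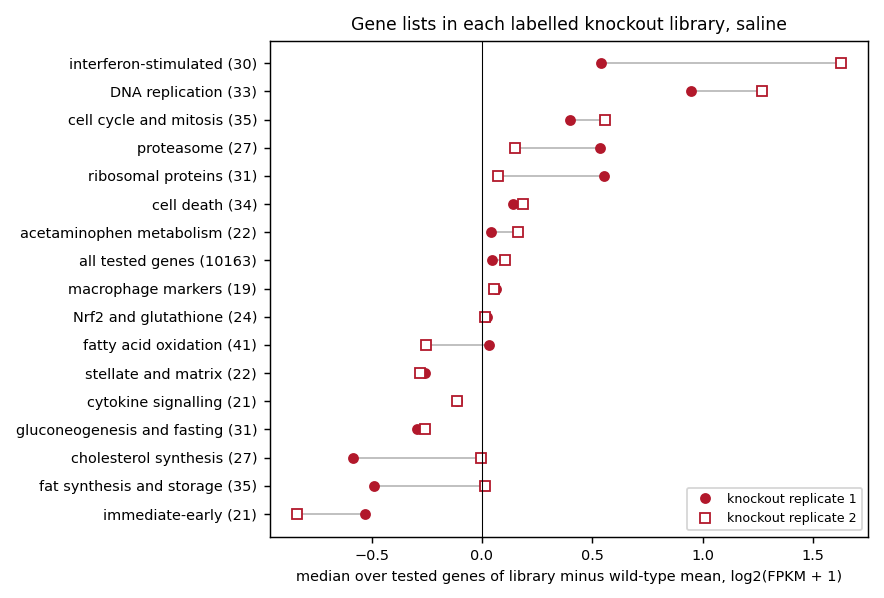
Median over the tested genes of each list (number in brackets) of log2(FPKM + 1) in a labelled knockout saline library minus the wild-type saline mean, with filled circles for replicate 1 and open squares for replicate 2. The DNA replication list stands at 0.95 and 1.27, the immediate-early list at -0.53 and -0.84 and the proteasome list at 0.54 and 0.15. The interferon-stimulated (0.54 and 1.63), cholesterol (-0.59 and -0.00), fat synthesis (-0.49 and 0.02) and ribosomal (0.55 and 0.07) lists lie further apart between the libraries.

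Sex-biased liver genes were compared because Mup17, Mup19 and Cyp2a4 were among the largest differences. Of 23 tested male-biased genes 0 were called (3 higher and 1 lower at an unadjusted p under 0.05), and the Mup members had the smallest p. This list does not hold Mup17 and Mup19, so that its 0 calls do not cover them. Mup11 had 183 and 84.8 FPKM in the labelled knockouts, against 24.4, 44.3 and 42.3 FPKM in wild type (log2 difference 1.77 ± 0.36, adjusted p = 0.0781). Mup7, at 2619 and 1491 FPKM in the labelled knockouts against 699, 1241 and 1218 FPKM in wild type, also did not pass (log2 difference 0.96 ± 0.32, adjusted p = 0.190). Cyp4a12a and Elovl3, male-biased genes outside the Mup cluster, had log2 differences of -0.60 ± 0.43 and -0.97 ± 0.43 with overlapping groups. Of 8 tested female-biased genes Cyp2a4 was the 1 call (0.197% of tested genes were called lower). Because Cyp2a4 prompted this comparison, its call here is not a separate result. The Y-linked gene Ddx3y was expressed in every library, with 14.7 and 11.95 FPKM in the labelled knockouts and 11.9, 14.3 and 13.5 FPKM in wild type. Of 14 tested genes of growth hormone and IGF signalling 0 were called (1 higher and 3 lower at an unadjusted p under 0.05), with a median log2 difference of -0.16, and the 2 smallest p belonged to Bcl6 and Cish. Bcl6, a repressor that growth hormone lowers, had 10.8 and 14.9 FPKM in the labelled knockouts, against 4.51, 1.49 and 4.46 FPKM in wild type (log2 difference 1.70 ± 0.35, adjusted p = 0.0789). Cish, a feedback inhibitor that growth hormone raises, had 0.64 and 1.40 FPKM in the labelled knockouts, against 3.90, 9.32 and 3.46 FPKM in wild type (log2 difference -1.62 ± 0.36, adjusted p = 0.0952).

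Markers of the other liver cells gave 0 calls for macrophages, neutrophils, lymphocytes, endothelium, stellate cells and matrix, bile duct cells and erythroid cells. At an unadjusted p under 0.05 stood 1 macrophage marker (higher), 1 neutrophil marker (lower), 2 lymphocyte markers (higher), 2 endothelial markers (1 in each direction), 10 stellate and matrix genes (lower), 0 bile duct markers and 4 erythroid markers (higher). Over 22 tested stellate and matrix genes 11 had labelled knockouts below every wild type, against 11.2% of tested genes, and 1 above, with a median log2 difference of -0.16 (0 called, 10 lower at an unadjusted p under 0.05). Tagln, a smooth-muscle cytoskeletal protein, had 5.28 and 3.62 FPKM in the labelled knockouts, against 9.65, 8.96 and 8.95 FPKM in wild type (log2 difference -0.92 ± 0.15, adjusted p = 0.0531). Col1a1, a chain of type I collagen, had 1.71 and 2.76 FPKM in the labelled knockouts, against 4.77, 5.39 and 3.86 FPKM in wild type (log2 difference -0.82 ± 0.19, adjusted p = 0.0952). Among 19 tested macrophage markers the median was 0.08, with C1qb, a complement chain of resident macrophages, at 60.4 and 61.0 FPKM in the labelled knockouts and 47.0, 52.8 and 48.9 FPKM in wild type (log2 difference 0.29 ± 0.12, adjusted p = 0.238). The summed macrophage markers are given above with the interferon-stimulated genes.
Within 10 Mb on either side of Adipor2, 126 genes were tested and 2 were called, Rad51ap1 and Clstn3, both higher, against 0.797% of all tested genes. Groups did not overlap in 40.5% of these 126 genes, close to the 39.0% of all tested genes. Chromosome 4 held 13 of the 81 calls among 666 tested genes, and chromosome 6 held 4 among 506. Of the chromosome 4 calls, only Mup17 and Mup19 are Mup genes.
Just inside the threshold lay Nup37, Nmral1, Mcm4, Ercc6l and Etnppl, with adjusted p from 0.0485 to 0.0488. Just outside lay Zfp992, Hapln4, Cdc6 and Dtymk, with adjusted p from 0.0505 to 0.0520.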

How the data were processed

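RNA from livers of APAP-injected mice was sequenced after TRIzol extraction and library construction with a VAHTS universal kit, per the labels' protocols. The authors deposited FPKM values for 16857 genes in 9 libraries. Per the submitters' processing notes, the tools were HISAT2, HTSeq, fastp and R (version 3.2.0) on build mm10, with no role or order stated. The sources used here give no annotation, filter or strand setting. Libraries were grouped by title, and 0 numeric columns were left unmatched.

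Because FPKM are not counts, differences were tested with limma 3.58.1 in R 4.3.3 on log2(FPKM + 1), which understates changes of low genes, over genes with at least 1 FPKM in at least 2 of the 5 saline libraries, with 1 mean per group, a variance trend, 3 residual and 4.19 prior degrees of freedom, and Benjamini-Hochberg adjustment over 10163 genes. Differences are labelled knockout minus wild type. Depth was read from whole fragments recovered for 16857 of 16857 genes at a tolerance of 0.0001. It covers counting error only.

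Genes were named by a rule: Adipor2, the 10 largest called rises and falls with groups that do not overlap (predicted genes and pseudogenes passed over), up to 6 called members of each list described or else its 2 smallest p, and the 5 genes on each side of the threshold. Some genes that this rule names are not reported here. Members and lists were chosen with earlier results of these data known. Alternatives changed the pseudocount, filter, scaling, variance model, libraries and block. The scripts were tested on simulated data.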

Additional observations from a re-analysis of the deposited data

How the results depend on the processing

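The 81 calls fell to 48 with a pseudocount of 0.1, to 15 (of 5833 genes tested) with a mean FPKM of at least 5, to 15 with array weights, to 2 when all 9 libraries shared the variance, and to 0 with no filter on low values, where 16378 genes were tested and 2476 had an unadjusted p under 0.05. Leaving out each library in turn gave between 0 and 641 calls, and Adipor2 kept log2 differences from -0.92 to -0.81, with adjusted p from 0.0203 to 0.156. Without labelled knockout replicate 1, the 12 calls that ended included Gins2, Mcm4, Dusp1, Clstn3 and Etnppl. Replicate numbers are shared by labels only, and same-numbered libraries had correlations of 0.090 and 0.107 between their deviations. Differently numbered libraries had correlations from -0.107 to 0.014. The 2 labelled knockouts deviate from their mean by equal and opposite amounts, so that these values mirror each other and cannot decide on pairing. With the replicate block 0 genes were called (1517 at an unadjusted p under 0.05), and Adipor2 had a log2 difference of -0.86 (adjusted p = 0.148). Replicate number 3 exists only in wild type, so that the block gave the same differences as leaving out wild-type replicate 3. Adipor2 also missed the threshold at the same difference of -0.87 with no filter, with a mean FPKM of at least 5, with array weights and with all 9 libraries (adjusted p = 0.140, 0.0550, 0.0835 and 0.0996). The direction of the 81 genes held in every alternative that tested them, with 43 of them tested at a mean FPKM of at least 5. Because their groups did not overlap, only median-ratio scaling and quantile normalization could have reversed a direction. Of the genes that the naming rule gave, 2 changed sign: Paqr9 was -0.65 without labelled knockout replicate 1 and 0.18 without replicate 2, and Slc4a2 was 0.013 and -0.42. The comparison is limited by its 2 labelled knockout and 3 wild-type libraries, with the labelled knockouts less alike than the wild types. Median-ratio scaling moved the median of all genes to 0.00.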
